A study of Homo sapiens with 8 samples.

Results

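The genes described here are the apoptosis machinery, 32 named genes of the BCL2 family, the caspases, the inhibitors of apoptosis, their adaptors and the nuclease that cuts DNA in dying cells. Members were all probe sets, the groups of short probes that read a transcript on the Affymetrix HG-U133A array, whose annotation gives exactly 1 gene symbol and that symbol is on the list. This found 73 of the 22283 probe sets on the array, reading 30 genes. BIRC3 and RIPK1 were not analysed here.

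The cells were an adenocarcinoma line of the lung (NSCLC, non-small cell lung cancer) that the labels leave unnamed, used to study synergy of platinum drugs with ligands of the nuclear receptor PPARγ. Cells in serum-containing medium received control treatment, which the series design gives as DMSO/control, or 1 µM rosiglitazone, a PPARγ ligand. Others received 10 µM carboplatin, which crosslinks DNA, or both drugs, for which no separate doses are stated, and all were taken at 24 h. Each of the 4 groups had 2 arrays, and the labels do not say whether the 2 came from separate cultures, so every p-value measures only the spread between arrays, which may be technical.

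Cells can start apoptosis from within or from the surface. In the mitochondrial route, BH3-only proteins, BID and BAD among them, oppose anti-apoptotic proteins of the BCL2 family, among them BCL2, BCL2L1 and MCL1. Pore-forming proteins such as BAK1 then act, cytochrome c (CYCS) leaves the mitochondria, and APAF1 assembles with it to activate CASP9. In the receptor route, ligand-bound death receptors recruit FADD or TRADD and activate CASP8 and CASP10, which CFLAR holds back. Inhibitors of apoptosis such as XIAP block the caspases, and DIABLO and HTRA2 from the mitochondria relieve that block. Much of this control acts on proteins that are already present, by cleavage, binding and degradation, which an mRNA level does not show.

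Levels are given as log2(signal + 16) after quantile normalization between arrays, and changes as log2 differences of these levels, ± the standard error (SE) of the limma fit, with n = 2 arrays in each group. Adding 16 to the signal understates the changes of dim probe sets. A probe set was tested if its mean level was at or above the 40th percentile of all probe sets, a level of 5.38, which kept 13338 probe sets, 50 of them members reading 27 genes. The DFFB probe set at 5.41 was the dimmest member kept and the XIAP probe set 206537_at at 5.36 the brightest left out. BCL2A1, BIK and BCL2L11 had no probe set above this level. The deposited median signal ran from 36.2 to 54.3 over the arrays. Epithelial markers KRT8, KRT18, KRT19 and CDH1 were above the filter and EPCAM was below it. None of 5 leukocyte and 3 endothelial markers was above it, and 2 of 4 fibroblast markers, COL1A1 and DCN, were. The summed deposited signal of the fibroblast list was 139 to 173 in control, 199 to 230 with rosiglitazone, 181 to 209 with carboplatin and 162 to 238 with the combination, and its part in the results below was not tested. In a bulk sample, fewer cells that carry an mRNA and less of it per cell cannot be told apart.

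No apoptosis machinery probe set passed the threshold, an adjusted p of 0.05 (limma, Benjamini-Hochberg over all 13338 probe sets, two-sided), in any of the 8 comparisons made. The drugs were visible on the same arrays. The PPAR target ANGPTL4 rose by 2.81 ± 0.16 over both rosiglitazone groups (adjusted p = 9.96e-06), PLIN2, which coats lipid droplets, rose by 1.69 ± 0.08, and the p53 target CDKN1A rose by 1.54 ± 0.13 over both carboplatin groups (adjusted p = 0.00167). With rosiglitazone against control, 0 of the 50 member probe sets passed against 0.36% of all probe sets, and 5 members had an unadjusted p under 0.05, which is 10% of them against 10.4% of all. For carboplatin against control the share of all probe sets that passed was 0.015% with 0 members, and 4 members, 8%, had an unadjusted p under 0.05 against 5.17% of all. For the combination against control 0.225% of all passed with 0 members, and 3 members, 6%, were under 0.05 unadjusted against 8.42%.

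The comparisons that set one drug on top of the other gave the same count of 0. Adding rosiglitazone to carboplatin changed 0.157% of all probe sets, and 1 member had an unadjusted p under 0.05 against a background of 6.43%. Adding carboplatin to rosiglitazone changed 0.0225% of all, and 1 member was under 0.05 unadjusted against 4.54%. The main effect of a drug is the mean of its differences with and without the other drug, so that 4 arrays stand against 4. For rosiglitazone it passed for 0.885% of all probe sets and 0 members, with 3 members under 0.05 unadjusted against 9.96% of all. For carboplatin it passed for 0.03% of all and 0 members, with 1 member under 0.05 unadjusted against 4.02%. The interaction, the difference between the combination and the sum of the single drugs on the log2 scale, passed for 0% of all probe sets, with 1 member under 0.05 unadjusted against 5.97%. In each of the 8 comparisons, the members' share with a small unadjusted p was therefore at most 2.83 percentage points above that of all probe sets. The comparisons with control share the control arrays and are not independent of each other.

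With 1 probe set per gene, the brightest above the filter, 13 of the 27 genes were higher and 14 lower after rosiglitazone, with a median log2 difference of -0.01 against -0.03 over 8030 genes. With the deposited scaling 19 genes were higher, as were 81.7% of all probe sets. After carboplatin 12 were higher and 15 lower (median -0.03 against -0.02), and after the combination 13 were higher and 14 lower (median -0.04 against -0.02), and 10 and 16 were higher in these with the deposited scaling, against 41.9% and 63.6% of all probe sets. Over probe sets, 26, 26 and 27 of 50 members were higher in the 3 treated groups, against 48.1%, 48.7% and 48% of all. The combination was above carboplatin in 23 of 50 members (49.3% of all) and above rosiglitazone in 31 (50.5% of all). The main effect was above 0 in 26 members for rosiglitazone (47.8% of all) and in 23 for carboplatin (49.1% of all), and the interaction in 24 (51.5% of all). With the deposited scaling, 21, 4, 21, 7 and 12 of the 27 genes were higher in these 5 comparisons, in that order, against 72%, 22.6%, 84.3%, 25% and 37.2% of all probe sets. The size of change that the arrays leave room for can be read from the 95% intervals of each gene. For the rosiglitazone main effect the interval lay inside a 2-fold change in either direction for 26 of 27 genes, APAF1 being the exception, and inside a log2 difference of 0.5 for 15. For the carboplatin main effect it lay inside 2-fold for 27 of 27 and inside 0.5 for 18. With a pseudocount of 1 in place of 16, which widens dim probe sets, both counts of genes inside 2-fold were 24. These are intervals of single genes, with no allowance for the number of genes.

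**Figure D1:**
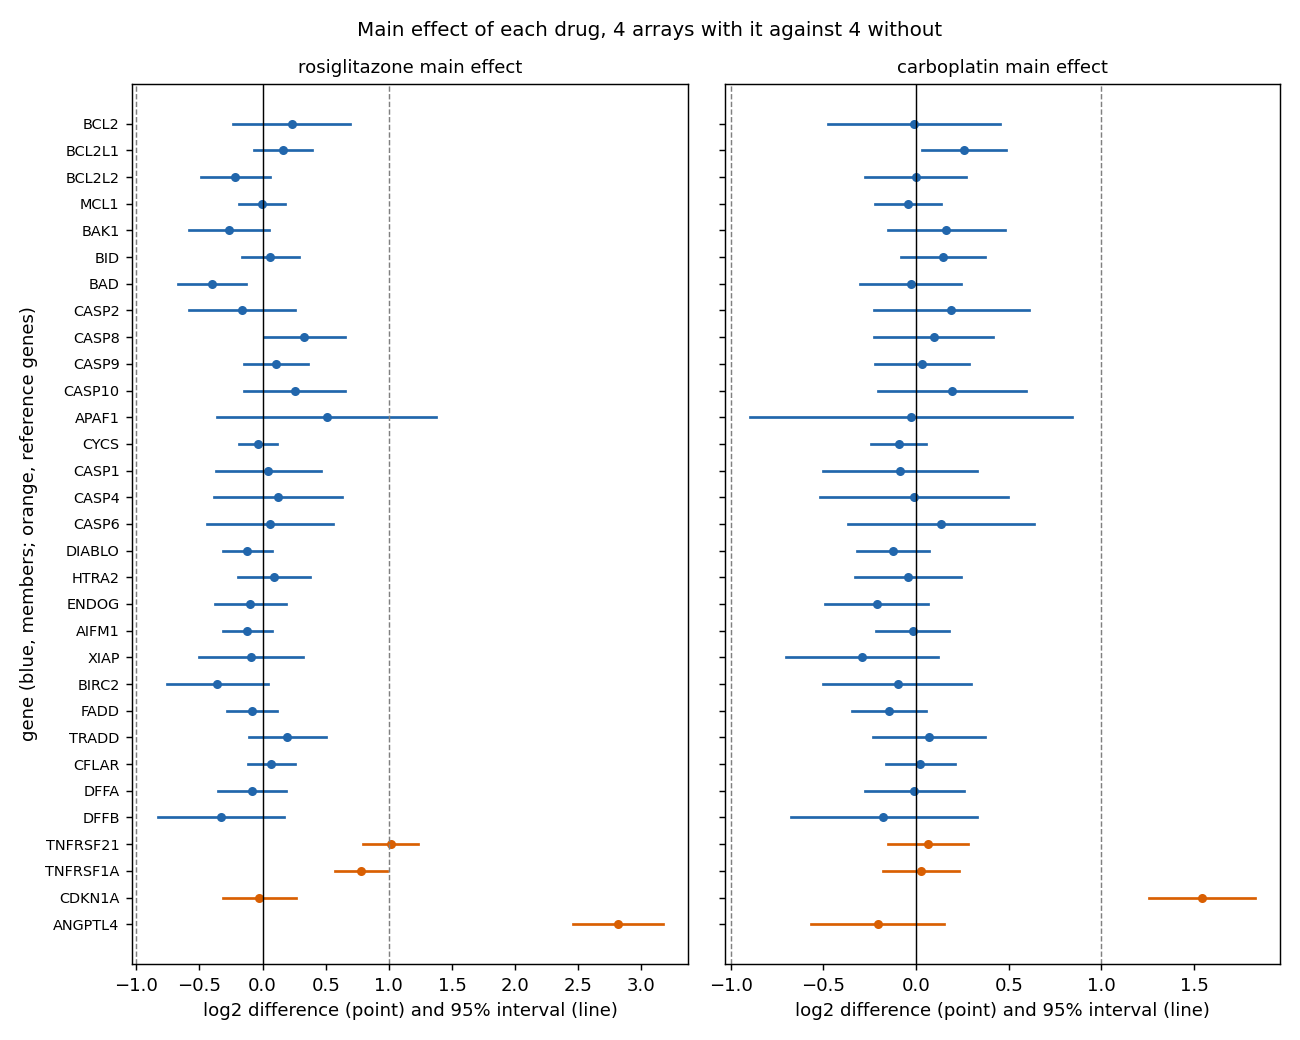
Log2 difference (point) with its 95% interval (line) for the rosiglitazone main effect (left) and the carboplatin main effect (right), 4 arrays with the drug against 4 without, for the 27 apoptosis machinery genes tested (blue) and 4 genes outside the list (orange). Dashed lines mark 2-fold changes, and only the APAF1 interval crosses one among the members, while TNFRSF21, TNFRSF1A and ANGPTL4 on the left and CDKN1A on the right stand away from 0.

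The arrays of a group differed from each other about as much as the groups did. For 32 of the 50 member probe sets, 64%, the largest gap between the 2 arrays of a group exceeded the range of the 4 group means, against 68.7% of all probe sets tested. The median residual SD was 0.20 for members and 0.19 for all probe sets on the log2 scale. Both rosiglitazone arrays were above both controls in 11 of 50 members (19.8% of all probe sets). Both combination arrays were above both carboplatin arrays in 10 (17.2% of all) and below in 9 (17.1% of all), and above both rosiglitazone arrays in 7 (16% of all) and below in 8 (15.1% of all). No member had all 4 arrays with a drug above the 4 without it, against 3.2% of all probe sets for rosiglitazone and 1.2% for carboplatin. The plot of the members by array shows tight pairs for FADD, CFLAR and AIFM1 and wide ones for APAF1, CASP4 and CASP6.

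**Figure D2:**
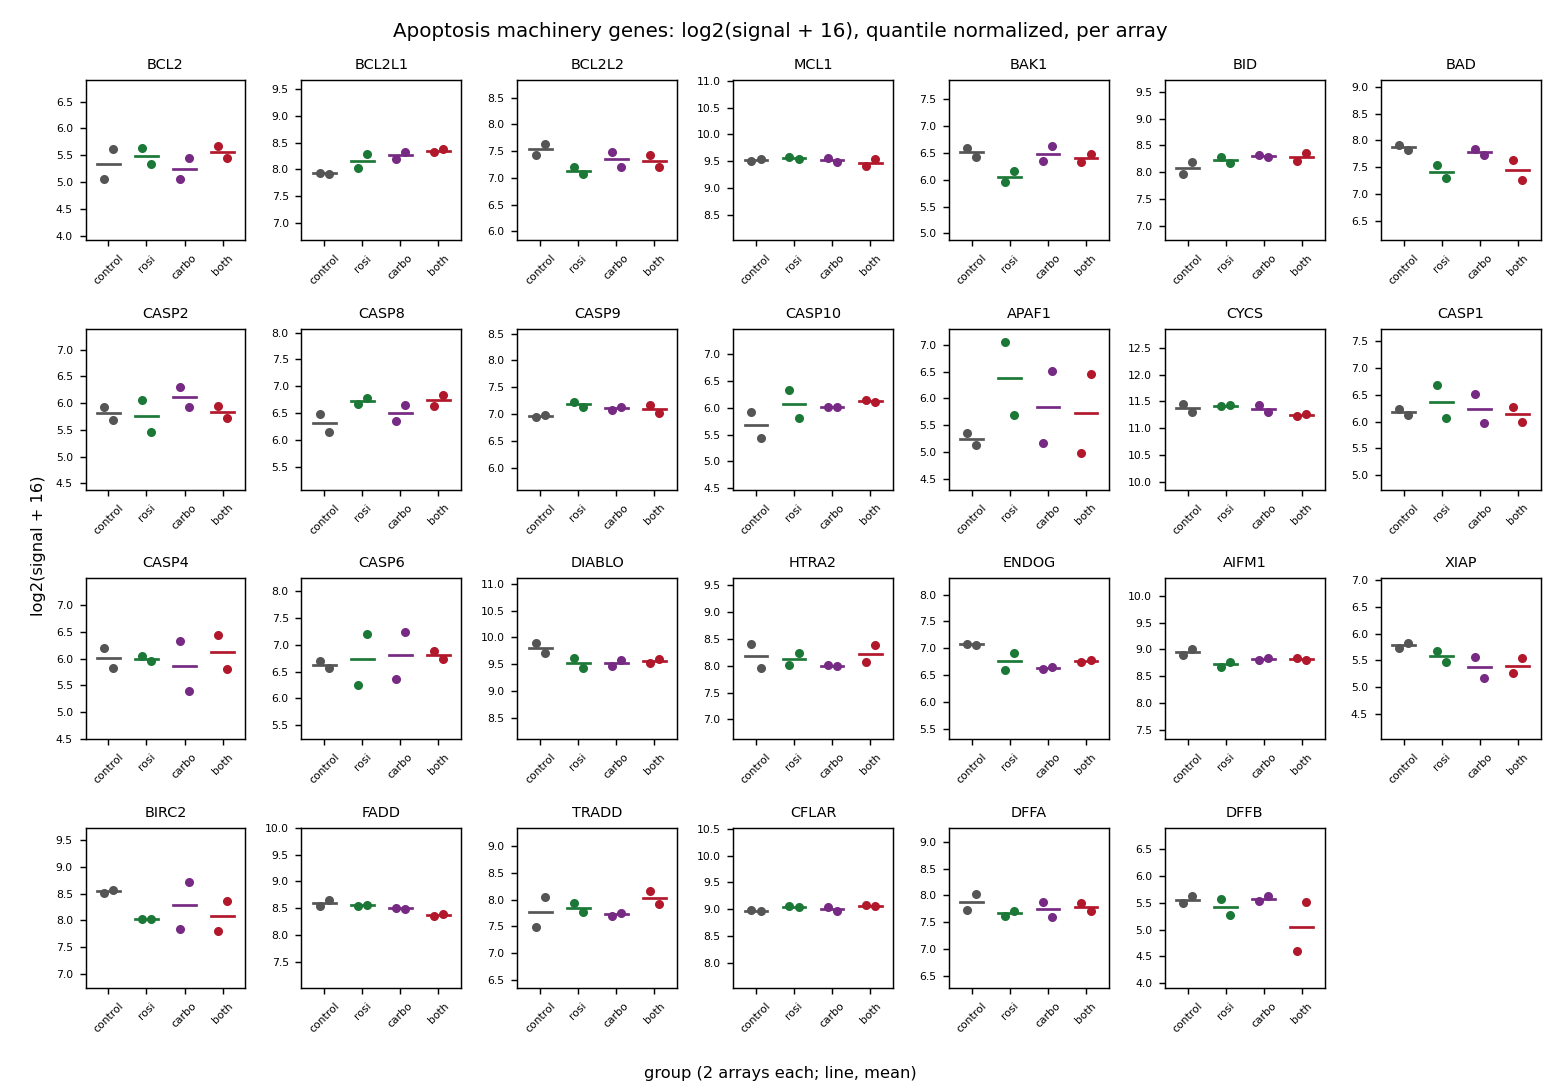
Level of 27 apoptosis machinery genes on each array, as quantile normalized log2(signal + 16) (vertical axis, spanning 3 log2 units in every panel), in control, rosiglitazone (rosi), carboplatin (carbo) and the combination (both); points are arrays and lines are the means of 2. The arrays of BAD with rosiglitazone lie below all arrays without it, and the 2 arrays of APAF1 lie far apart in each treated group.

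Among the anti-apoptotic BCL2 family, BCL2L1, which encodes BCL-XL, had the smallest p of the members for the combination against control and for the carboplatin main effect. Its brightest probe set 212312_at had levels of 7.93 and 7.92 in the controls, 8.03 and 8.30 after rosiglitazone, 8.20 and 8.32 after carboplatin and 8.32 and 8.38 after both drugs. All 6 treated arrays were above both control arrays. The log2 difference from control was 0.33 ± 0.15 for carboplatin (adjusted p = 0.93), 0.42 ± 0.15 for the combination (adjusted p = 0.43) and 0.24 ± 0.15 for rosiglitazone (adjusted p = 0.62), none past the limma threshold. The 95% interval of the combination difference ran from 0.10 to 0.74, and the carboplatin main effect was 0.26 ± 0.10 (adjusted p = 0.997), or 0.15 with the deposited scaling. A second BCL2L1 probe set, 215037_s_at, was at 6.77 and 6.89 in the controls, 7.52 and 7.07 after rosiglitazone, 7.27 and 7.26 after carboplatin and 7.08 and 7.71 after both drugs. Here too no treated array overlapped the control arrays, and the differences of 0.43 ± 0.23 with carboplatin and 0.56 ± 0.23 with the combination did not pass (adjusted p = 0.93 and 0.53). The combination value of this probe set was 0.24 without combination 2 and 0.88 without combination 1. The third, 206665_s_at, differed by 0.14 ± 0.27 in the combination, with its 2 controls at 6.87 and 6.0. For comparison, the carboplatin groups lay entirely above control in 8 of 50 members, 16%, against 16.2% of all probe sets, and the combination in 11 members, 22%, against 17.3%. The share of all probe sets with all 6 treated arrays above the same 2 controls was not counted.

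BCL2L2, which encodes the related protein BCL-W, was at 7.43 and 7.63 in the controls and 7.19 and 7.07 after rosiglitazone. Its rosiglitazone difference of -0.40 ± 0.17 did not pass (adjusted p = 0.46), and it was -0.15 with the deposited scaling. Carboplatin arrays were at 7.48 and 7.21 and combination arrays at 7.42 and 7.21, so each pair held 1 array near the controls and 1 near the rosiglitazone arrays. BCL2 itself was read by 4 probe sets, of which 203685_at was tested, and its differences from control lay between -0.09 ± 0.30 and 0.22 ± 0.30. The dim BCL2 probe set 207005_s_at, below the filter, was at 5.55 and 5.76 in the controls, 4.73 and 4.44 after rosiglitazone, 5.33 and 5.35 after carboplatin and 5.25 and 4.97 after both drugs. In the fit with no filter its rosiglitazone difference was -1.07 ± 0.24 (adjusted p = 0.25, limma over 22215 probe sets), the smallest p among the 23 member probe sets below the filter.

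MCL1, a short-lived anti-apoptotic protein whose transcript is spliced into long and short forms, was read by 5 probe sets. Their changes differed in sign and in size, with 2 higher and 3 lower in the combination than in control. The brightest, 200797_s_at, was at 9.50 and 9.55 in the controls, 9.59 and 9.54 after rosiglitazone, 9.57 and 9.48 after carboplatin and 9.41 and 9.54 after both drugs. These 8 levels lie within 0.18 of each other, and its interval for the combination against control ran from -0.30 to 0.21. The dimmer 200796_s_at was at 6.30 and 5.61 in the controls, 6.81 and 6.29 after rosiglitazone, 6.07 and 6.80 after carboplatin and 5.0 and 5.66 after both drugs. Both combination arrays were below the arrays of either single drug. The difference was -1.10 ± 0.34 against carboplatin (adjusted p = 0.50) and -1.22 ± 0.34 against rosiglitazone (adjusted p = 1.0), and the interaction was -1.70 ± 0.48 (adjusted p = 0.82). None passed, though each had the smallest p among members in its comparison. The interaction of this probe set ran from -2.28 with a pseudocount of 1 to -0.97 with one of 64. With the deposited scaling the smallest adjusted p of any member was 0.10 for the combination against rosiglitazone.

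Of the 5 MCL1 probe sets, 4 were lower in the combination than with carboplatin and 4 lower than with rosiglitazone, by very different amounts. Against carboplatin the 4 lower values were -1.10, -0.13, -0.11 and -0.05, while 214057_at was 0.32 ± 0.24 higher. The probe set that was higher than with rosiglitazone was 214056_at, by 0.06. Probe set 200798_x_at was at 8.70 and 8.38 in the controls, 9.13 and 9.03 after rosiglitazone, 8.49 and 9.05 after carboplatin and 8.31 and 8.97 after both drugs. Its rosiglitazone arrays lay clear of control, by 0.54 ± 0.23 (adjusted p = 0.46), and this was 0.19 with array brightness as a covariate and 0.78 with the deposited scaling. Both combination arrays of 200798_x_at were below both rosiglitazone arrays, with a difference of -0.44 ± 0.23 (adjusted p = 1.0) that was -0.11 without combination 1 and -0.77 without combination 2. Its interaction of -0.67 ± 0.33 (adjusted p = 0.83) was -0.34 without combination 1 and -0.39 without carboplatin 2. Probe sets 214056_at and 214057_at differed from control by -0.16 to 0.25 over the 3 treated groups. Which splice forms each probe set reads is not given in the sources used here.

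**Figure D3:**
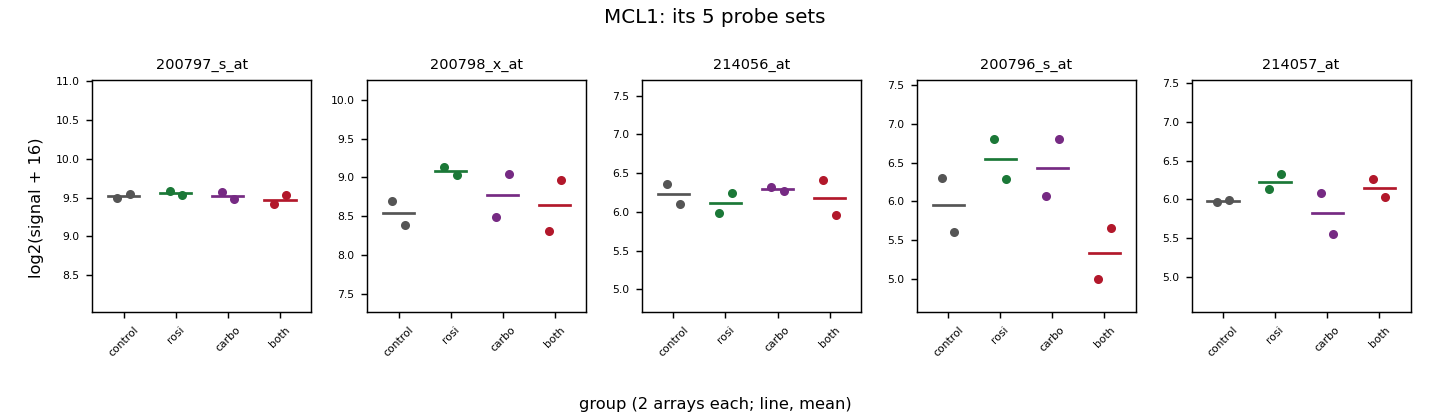
Level of the 5 MCL1 probe sets on each array, as quantile normalized log2(signal + 16) (vertical axis, 3 log2 units in every panel), in the 4 groups, with points for arrays and lines for means of 2. The brightest probe set is flat within 0.18, and in 200796_s_at both combination arrays lie below those of each single drug.

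Among the pro-apoptotic BCL2 family, BAD, a BH3-only protein that binds BCL2 and BCL-XL, was the member with the smallest p for rosiglitazone. Probe set 209364_at was at 7.92 and 7.83 in the controls, 7.54 and 7.29 after rosiglitazone, 7.85 and 7.74 after carboplatin and 7.63 and 7.26 after both drugs. All 4 arrays with rosiglitazone were below all 4 without it, which held for 1 of 50 members, 2%, against 2.95% of all probe sets. The main effect was -0.40 ± 0.12, or 0.76-fold (adjusted p = 0.26), with a 95% interval from -0.67 to -0.13. It did not pass, and it was -0.22 with the deposited scaling and -0.49 without combination 1. The differences were -0.46 ± 0.17 for rosiglitazone against control and -0.35 ± 0.17 for the combination against carboplatin (adjusted p = 0.41 and 0.83), and the latter was -0.53 without combination 1 and -0.16 without combination 2. The combination differed from control by -0.43 ± 0.17 (adjusted p = 0.53), or -0.24 without combination 2. The second BAD probe set, 1861_at, gave a main effect of -0.22 ± 0.13, at 6.94 and 6.92 in the controls and 6.57 and 6.73 after rosiglitazone.

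BAK1, which forms pores in the outer mitochondrial membrane, was at 6.59 and 6.43 in the controls, 5.96 and 6.16 after rosiglitazone, 6.35 and 6.62 after carboplatin and 6.33 and 6.49 after both drugs. The rosiglitazone arrays were the lowest, at -0.46 ± 0.20 from control (adjusted p = 0.48), and the combination arrays overlapped control. The rosiglitazone main effect was -0.27 ± 0.14 (adjusted p = 0.60). The difference from control was -0.22 with the deposited scaling and -0.61 with the brightness covariate. Groups lay entirely below control after rosiglitazone in 13 of 50 members, 26%, against 22.2% of all probe sets. BID, which CASP8 cleaves to link the receptor route to mitochondria, had a rosiglitazone main effect of 0.06 ± 0.10 on 211725_s_at and -0.19 ± 0.14 on 204493_at. BIK was at 5.0 and 4.49 in control and between 4.18 and 4.75 on treated arrays. BCL2L11, which encodes BIM, had 2 probe sets, whose levels ran from 4.06 to 5.28, and both BIK and BCL2L11 were below the filter.

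The initiator caspases and the apoptosome had 6 genes tested. On the brightest probe set of each gene, 5 were higher than control and 1 lower in each treated group, with none past the threshold. Of all genes represented, 44.1% were higher with rosiglitazone, 45.5% with carboplatin and 46.1% with the combination. Other probe sets went the other way for CASP9 with each single drug and for APAF1, as given below. Probe sets of CASP10 and CASP2 below the filter had differences of both signs over the treated groups. The median log2 difference of the 6 genes was 0.31 with rosiglitazone, 0.24 with carboplatin and 0.28 with the combination, against -0.03, -0.02 and -0.02 over all genes represented. The split was 6 to 0 for rosiglitazone and for the combination with the deposited scaling, which put the median of all probe sets in these comparisons at 0.22 and 0.08, and 4 to 2 for the combination with median scaling. CASP8, the initiator of the receptor route, was at 6.48 and 6.14 in the controls, 6.67 and 6.78 after rosiglitazone, 6.34 and 6.65 after carboplatin and 6.63 and 6.84 after both drugs on 213373_s_at. Both groups with rosiglitazone lay above control, by 0.42 ± 0.21 each (adjusted p = 0.52 and 0.63), the combination value being 0.25 without control 2, and the main effect was 0.33 ± 0.15 (adjusted p = 0.49). It ran from 0.19 with the brightness covariate to 0.51 with the deposited scaling. The second CASP8 probe set, 207686_s_at, was at 5.73 and 4.52 in control and between 5.35 and 6.01 on treated arrays, and its interaction of -0.93 ± 0.51 (adjusted p = 0.85) was -0.33 without control 2 and -1.54 without control 1.

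APAF1, the scaffold of the apoptosome, had the widest pairs of any tested member. Probe set 211554_s_at was at 5.35 and 5.13 in the controls, 7.06 and 5.69 after rosiglitazone, 5.17 and 6.50 after carboplatin and 4.99 and 6.46 after both drugs. Each treated group thus held 1 array well above control, while 1 array of carboplatin and 1 of the combination lay within or below the control range. The rosiglitazone difference of 1.13 ± 0.56 had a 95% interval from -0.10 to 2.36 and did not pass (adjusted p = 0.52). The other 2 APAF1 probe sets, below the filter, ran from 4.74 to 5.45 with no array above the highest control array. In the fit with no filter their differences from control lay between -0.03 and -0.56 over the treated groups. CYCS, the electron carrier that APAF1 senses once it is in the cytosol, was at 11.45 and 11.30 in the controls, 11.41 and 11.43 after rosiglitazone, 11.43 and 11.30 after carboplatin and 11.23 and 11.26 after both drugs. The combination differed from control by -0.13, with a 95% interval from -0.34 to 0.08, and from rosiglitazone by -0.18 ± 0.10 (adjusted p = 1.0).

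CASP9, the initiator that the apoptosome activates, gave 0.22 ± 0.16 for rosiglitazone against control on 210775_x_at. On 203984_s_at it was at 6.61 and 7.15 in the controls, 6.64 and 6.74 after rosiglitazone, 6.45 and 6.78 after carboplatin and 6.89 and 6.93 after both drugs. The differences from control there were -0.19 ± 0.22 with rosiglitazone, -0.26 ± 0.22 with carboplatin and 0.03 ± 0.22 with the combination. The 0.30 ± 0.22 of the combination over carboplatin on that probe set did not pass (adjusted p = 0.91) and was 0.13 without carboplatin 1 and 0.47 without carboplatin 2. On the tested probe sets CASP2 differed from control by -0.05 ± 0.27 to 0.30 ± 0.27, and CASP10, a relative of CASP8, by 0.34 ± 0.26 to 0.45 ± 0.26. The CASP10 probe sets below the filter varied in sign. In the fit with no filter, 210955_at differed from control by -0.29 with rosiglitazone, 0.29 with carboplatin and -0.27 with the combination. In the same order, 205467_at gave 0.38, 0.12 and -0.49, and 211888_x_at gave -0.12, 1.08 and 0.08.

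Since carboplatin damages DNA and the p53 target CDKN1A rose over both carboplatin groups, promoters were searched for the p53 half-site consensus. Whether p53 acts in these cells was not tested. RefSeq promoter windows (GRCh38.p14), taken as the 250 bases before each start site, were at hand for 25 of the 32 genes, in 47 windows. The half-site consensus was found on either strand in 3 of these windows, 1 each in BAK1, CASP8 and CASP9, against 5.57% of 35116 windows of the same length. The stricter pair of cores, CATG followed by CATG with 6 bases between, was found in 1 member window, that of BCL2A1, against 0.296% of all, and the PPAR direct repeat, AGGTCA followed by AGGTCA with 1 base between, in none, against 0.0171%. Both were searched on either strand, and the pair can overlap the half-site. The 3 windows are shown so that the match can be seen in its context, with the half-site in capitals, 188 bases before the start in CASP9 (chr1:15524791-15525040, minus strand), 121 before it in CASP8 (chr2:201257785-201258034, plus strand) and 73 before it in BAK1 (chr6:33580277-33580526, minus strand).
CASP9: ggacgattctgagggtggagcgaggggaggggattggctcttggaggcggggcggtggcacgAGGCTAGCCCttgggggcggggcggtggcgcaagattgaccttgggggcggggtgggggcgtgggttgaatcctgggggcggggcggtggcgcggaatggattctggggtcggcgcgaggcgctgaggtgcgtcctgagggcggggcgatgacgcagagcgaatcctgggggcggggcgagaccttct
CASP8: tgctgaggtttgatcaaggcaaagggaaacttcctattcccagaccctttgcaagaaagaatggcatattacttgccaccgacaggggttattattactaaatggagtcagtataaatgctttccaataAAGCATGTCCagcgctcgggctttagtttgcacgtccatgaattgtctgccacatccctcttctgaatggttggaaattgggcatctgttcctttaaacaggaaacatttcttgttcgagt
BAK1: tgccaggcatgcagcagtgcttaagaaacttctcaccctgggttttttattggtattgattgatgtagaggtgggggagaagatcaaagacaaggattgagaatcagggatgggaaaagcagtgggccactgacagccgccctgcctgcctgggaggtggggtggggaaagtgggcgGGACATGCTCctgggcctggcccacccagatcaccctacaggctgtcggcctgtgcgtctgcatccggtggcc
Against these windows, the carboplatin main effect was 0.03 ± 0.12 for CASP9, 0.09 ± 0.15 for CASP8 and 0.16 ± 0.14 for BAK1, none past the threshold. A match is a description of letters and not of a site in use.

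The remaining caspases showed wide pairs and no change past the threshold. CASP6, an executioner caspase, was at 6.69 and 6.56 in the controls, 6.26 and 7.20 after rosiglitazone, 6.37 and 7.24 after carboplatin and 6.89 and 6.74 after both drugs. The 2 arrays of either single drug lay on opposite sides of both controls on this probe set, 209790_s_at. Its differences from control were 0.10 ± 0.32 with rosiglitazone, 0.18 ± 0.32 with carboplatin and 0.19 ± 0.32 with the combination. On the second tested CASP6 probe set, 211464_x_at, they were -0.34 ± 0.30, 0.05 ± 0.30 and -0.10 ± 0.30 in the same order. CASP4 and CASP1, the inflammatory caspases, had main effects between -0.14 ± 0.26 and 0.19 ± 0.22 over their 4 tested probe sets and both drugs. The largest gap between 2 arrays of a group was 1.22 for the CASP4 probe set 213596_at, in the combination. CASP1 had 3 further probe sets below the filter.

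Of the factors that leave the mitochondria, all 4 genes tested were lower than control with rosiglitazone and with carboplatin, and 3 of 4 with the combination, with none past the threshold. Over all 8030 genes represented, 4490, 4373 and 4327 were lower in these comparisons, which share the control arrays. HTRA2 counted as lower with rosiglitazone at -0.04 ± 0.18. The median log2 difference of the 4 genes was -0.25 with rosiglitazone, -0.23 with carboplatin and -0.19 with the combination. With the deposited scaling 3 of 4 were lower for rosiglitazone, with a median of -0.03, and all 4 for carboplatin. DIABLO, which binds inhibitors of apoptosis, was at 9.89 and 9.71 in the controls, 9.62 and 9.43 after rosiglitazone, 9.46 and 9.58 after carboplatin and 9.52 and 9.59 after both drugs. All 6 treated arrays were below both controls, which the treated groups share, and the share of all probe sets with this pattern was not counted. The differences were -0.28 ± 0.12 with carboplatin (adjusted p = 0.93) and -0.24 ± 0.12 with the combination (adjusted p = 0.66). The combination value was -0.15 without control 1.

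ENDOG, a mitochondrial nuclease, was at 7.08 and 7.06 in the controls, 6.59 and 6.91 after rosiglitazone, 6.62 and 6.65 after carboplatin and 6.74 and 6.78 after both drugs. Again every treated array lay below control, and the difference was -0.43 ± 0.18 with carboplatin (adjusted p = 0.93), with a 95% interval from -0.83 to -0.04. Its interaction was 0.44 ± 0.25 (adjusted p = 0.85), and 0.28 without rosiglitazone 1. The serine protease gene HTRA2 was at 7.66 and 7.45 in the controls, 7.22 and 7.41 after rosiglitazone, 7.17 and 7.08 after carboplatin and 7.38 and 7.28 after both drugs on 211152_s_at. Its carboplatin difference of -0.43 ± 0.17 did not pass (adjusted p = 0.93), and the brighter HTRA2 probe set 203089_s_at gave -0.18 ± 0.18, with the combination overlapping control. The interaction of HTRA2 on 211152_s_at was 0.45 ± 0.23 (adjusted p = 0.84), and 0.27 on the brighter 203089_s_at. The carboplatin main effect of HTRA2 was -0.21 on 211152_s_at and -0.04 on 203089_s_at. That of ENDOG was -0.21, or -0.13 without rosiglitazone 2. AIFM1, a flavoprotein that moves to the nucleus in some forms of cell death, was between 8.66 and 8.84 on treated arrays and at 8.89 and 9.01 in control. As background, carboplatin arrays lay entirely below control in 6 of 50 members, 12%, against 18.9% of all probe sets, and combination arrays in 11, 22%, against 19.5%. No such share was counted for all treated arrays together.

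Both inhibitors of apoptosis tested were lower than control in every treated group without passing, on the 1 probe set of each above the filter. Over all 8030 genes represented, 4490, 4373 and 4327 were lower with rosiglitazone, carboplatin and the combination. BIRC2, which encodes the ubiquitin ligase cIAP1, was at 8.52 and 8.57 in the controls, 8.02 and 8.03 after rosiglitazone, 7.85 and 8.72 after carboplatin and 7.80 and 8.37 after both drugs. The rosiglitazone pair was close and below control, at -0.52 ± 0.26 (adjusted p = 0.52), while the carboplatin pair lay on either side of it. The rosiglitazone main effect of -0.36 ± 0.18 was -0.58 without carboplatin 1, -0.14 without carboplatin 2, -0.22 without combination 1 and -0.16 with the deposited scaling. XIAP, the inhibitor that binds caspases directly, was at 5.74 and 5.83 in control on 206536_s_at, near the filter, and differed from control by -0.21 ± 0.26 to -0.41 ± 0.26. Its other probe set, 206537_at, lay just below the filter and had the opposite sign with each single drug. In the fit with no filter it differed from control by 0.10 ± 0.36 with rosiglitazone, 0.23 ± 0.36 with carboplatin and -0.23 ± 0.36 with the combination.

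Among the adaptors and their regulator, FADD had close pairs, while single probe sets of TRADD and CFLAR did not. FADD, the adaptor that joins death receptors to CASP8, was at 8.55 and 8.65 in the controls, 8.55 and 8.57 after rosiglitazone, 8.50 and 8.49 after carboplatin and 8.35 and 8.39 after both drugs. All 4 carboplatin arrays lay below the 4 without it, which held for 1 of 50 members, 2%, against 1.16% of all probe sets. The main effect was -0.15 ± 0.09 (adjusted p = 0.997), with a 95% interval from -0.35 to 0.05. TRADD, the adaptor of TNF receptor 1, was at 7.49 and 8.06 in the controls, 7.93 and 7.77 after rosiglitazone, 7.70 and 7.75 after carboplatin and 8.16 and 7.91 after both drugs on 205641_s_at. The combination exceeded carboplatin by 0.31 ± 0.20 (adjusted p = 0.88), or 0.19 without combination 1, and on the second probe set, 1729_at, the 3 differences from control lay between -0.09 ± 0.16 and 0.04 ± 0.16.

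CFLAR, which encodes the caspase-like inhibitor FLIP, was read by 11 probe sets, 9 of them tested. Of the 11, 8 have names ending in x_at, the mark of probes that can read more than 1 transcript. The brightest, 209939_x_at, was at 8.99 and 8.96 in the controls, 9.06 and 9.04 after rosiglitazone, 9.04 and 8.96 after carboplatin and 9.07 and 9.06 after both drugs. Its differences from control were at most 0.09 ± 0.12, with an interval from -0.17 to 0.35 in the combination. Probe set 211862_x_at was at 6.39 and 6.13 in the controls, 7.05 and 6.65 after rosiglitazone, 6.71 and 6.10 after carboplatin and 6.62 and 6.55 after both drugs. Both groups with rosiglitazone were above control, by 0.59 ± 0.24 alone (adjusted p = 0.44), and the main effect of 0.39 ± 0.17 did not pass (adjusted p = 0.49). The first value was 0.39 without rosiglitazone 1 and the second 0.23 without carboplatin 2. On 211316_x_at the levels were 6.95 and 6.82 in the controls, 7.18 and 6.84 after rosiglitazone, 6.88 and 6.64 after carboplatin and 6.92 and 6.46 after both drugs. The combination lay -0.32 ± 0.21 from rosiglitazone there (adjusted p = 1.0), and the value was -0.09 without combination 2, -0.55 without combination 1 and -0.15 without rosiglitazone 1. Among the 12 genes with at least 2 tested probe sets, 7 had probe sets of both signs for the rosiglitazone main effect and 4 for carboplatin.

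The nuclease that cuts DNA between nucleosomes, DFFB, and its inhibitor DFFA, which caspases cleave, closed the list. DFFA was at 7.72 and 8.03 in control and between 7.60 and 7.88 on treated arrays. DFFB was at 5.49 and 5.62 in the controls, 5.57 and 5.28 after rosiglitazone, 5.54 and 5.62 after carboplatin and 4.60 and 5.51 after both drugs. The difference of -0.53 ± 0.32 between the combination and carboplatin (adjusted p = 0.87) rested on combination 1, and it was -0.07 without that array and -0.98 without combination 2.

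Of 39 further apoptosis genes outside the list, 21 were tested. None of 6 other BCL2 family genes, 2 other caspase or inhibitor genes and 8 adaptor or NF-κB genes passed in any comparison by limma, and in the rosiglitazone main effect 1, 1 and 0 of them had an unadjusted p under 0.05. Of 5 death receptor genes, 2 passed in the rosiglitazone main effect, and the same 2 had an unadjusted p under 0.05 there. Of all probe sets tested, 0.885% passed in that comparison and 9.96% had an unadjusted p under 0.05. The lists were chosen with earlier results of these data known. TNFRSF21, which encodes death receptor 6, was at 8.78 and 8.82 in the controls, 9.68 and 9.99 after rosiglitazone, 8.92 and 8.84 after carboplatin and 9.77 and 9.98 after both drugs. It rose by 1.02 ± 0.10 as a rosiglitazone main effect (adjusted p = 0.000984). TNFRSF1A, which encodes TNF receptor 1, was at 9.81 and 10.20 in the controls, 10.86 and 10.70 after rosiglitazone, 10.06 and 9.99 after carboplatin and 10.80 and 10.83 after both drugs. It rose by 0.78 ± 0.09 as a main effect (adjusted p = 0.0028), a call lost without the intensity trend (adjusted p = 0.055). For both receptors the arrays with rosiglitazone stood clear of those without. The difference between receptors and adaptors was not tested.

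**Figure D4:**
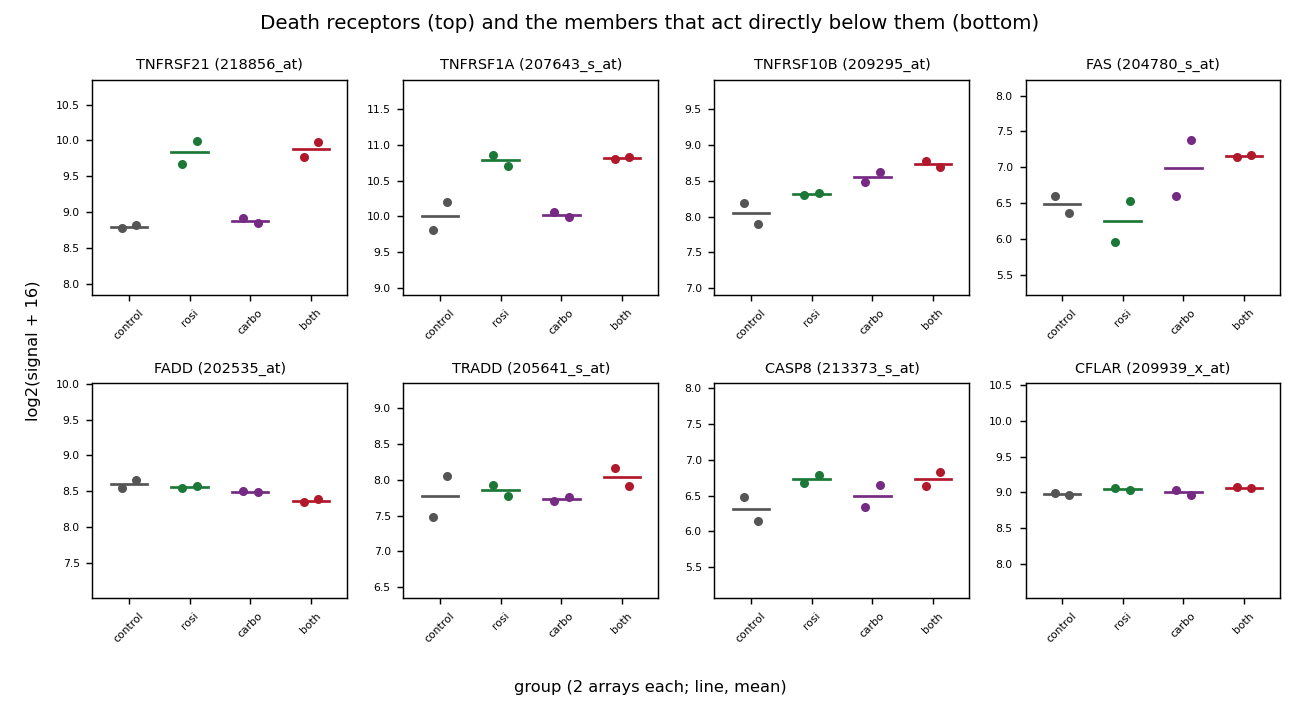
Level of 4 death receptor genes (top) and of FADD, TRADD, CASP8 and CFLAR, which act directly below them (bottom), on each array as quantile normalized log2(signal + 16) (vertical axis, 3 log2 units in every panel), with points for arrays and lines for the means of 2. TNFRSF21 and TNFRSF1A are higher on the 4 arrays with rosiglitazone, and the genes in the bottom row passed in no comparison.

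Other genes of the pathway did not pass. The receptor gene TNFRSF10B, a p53 target, differed on its brightest probe set, 209295_at, by 0.69 ± 0.15 in the combination (adjusted p = 0.097) and by 0.51 ± 0.15 with carboplatin (adjusted p = 0.88). Its other tested probe sets had the combination arrays below the carboplatin arrays. On 209294_x_at carboplatin was at 7.9 and 7.8 and the combination at 7.3 and 7.5, and on 210405_x_at they were at 7.7 and 7.5 and at 7.1 and 7.3. The FAS probe set 216252_x_at, whose x_at name marks probes that can read several transcripts, differed by 0.83 ± 0.19 with carboplatin (adjusted p = 0.62). On the brightest FAS probe set, 204780_s_at, carboplatin arrays were at 6.605 and 7.384 and controls at 6.598 and 6.365. Rosiglitazone arrays were at 6.80 and 6.58 on 216252_x_at, above controls at 6.11 and 6.15, but at 5.96 and 6.53 on 204780_s_at. PMAIP1, which encodes the BH3-only protein NOXA, was at 8.38 and 7.96 in the controls and 8.86 and 8.64 after rosiglitazone, a difference of 0.58 ± 0.18 (adjusted p = 0.29). On its dimmer probe set 204286_s_at the controls were at 5.56 and 5.24 and the rosiglitazone arrays, between them, at 5.29 and 5.41. BAX, the pore-forming partner of BAK1, had a carboplatin main effect of 0.63 ± 0.27 on 211833_s_at (adjusted p = 0.997), in which rosiglitazone 1 stood low at 5.43 against 6.87 to 7.74 on the other arrays. BIRC5, which encodes survivin, had a rosiglitazone main effect of -0.28 ± 0.10 (adjusted p = 0.34), and BIRC7 differed by 0.41 ± 0.26 in the combination (adjusted p = 0.74). The adaptor gene CRADD was 0.49 ± 0.18 higher in the combination than with rosiglitazone (adjusted p = 1.0), and TRAF1 was -0.42 ± 0.21 from carboplatin in the combination (adjusted p = 0.83).

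Member probe sets below the filter gave no call either. In the fit with no filter over 22215 probe sets, 0 of the 23 passed in any of the 8 comparisons, against 0% to 0.32% of all probe sets. In each comparison 2 or 3 of the 23 had an unadjusted p under 0.05, which is 8.7% or 13% of them. The share was 4.54% to 8.68% of all probe sets in that fit, and 5.47% to 7.19% of those below the filter. BCL2A1, an anti-apoptotic NF-κB target, was at 5.36 and 5.27 in the controls, 4.43 and 4.89 after rosiglitazone, 4.89 and 5.15 after carboplatin and 4.73 and 4.51 after both drugs. All treated arrays were lower than control, a pattern whose share of all probe sets was not counted. The rosiglitazone main effect of BCL2A1 was -0.53 ± 0.17 (adjusted p = 0.41). With no detection calls in the deposited table, levels this low cannot be told from background.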

How the data were processed

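Per the labels' protocols, biotinylated cRNA was made with an oligo-dT primer and read on HG-U133A arrays. The deposited values are intensity values, 1 linear signal per probe set, with software and scaling not given in the sources used here. Array medians on the log2(signal + 16) scale spanned 0.43, so values were quantile normalized. The 68 control probe sets and those below the 40th percentile were left out. One limma model (limma 3.58.1, R 4.3.3; lmFit, eBayes with an intensity trend) was fitted to all 8 arrays with 1 coefficient per group, with 4 residual and 7.1 prior degrees of freedom. The number of arrays limits the precision. The members, lists and tests were chosen with earlier results of these data known. Members described in full were any called and the 5 with the smallest p in each comparison. Other pathway genes named were those called and up to 2 more per list with the smallest p, and ANGPTL4, PLIN2 and CDKN1A checked the treatments. Probe sets were named from GEO's platform annotation, in which 19071 have 1 symbol, 1043 several and 2169 none. All 30 member symbols matched RefSeq (GRCh38.p14) by Entrez identifier. Alternatives changed the scaling, pseudocount, filter, trend, block and arrays used, 1 at a time. The model was tested on simulated data.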

Additional observations from a re-analysis of the deposited data

Results flagged for a closer look

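The CASP10 probe set 211888_x_at lies below the filter and entered no comparison, but its 2 carboplatin arrays stood above both control arrays. It was at 5.39 and 4.63 in the controls, 4.71 and 5.06 after rosiglitazone, 6.04 and 6.14 after carboplatin and 5.03 and 5.14 after both drugs. The carboplatin mean was 1.08 above control on the log2 scale. In the fit with no filter this difference had an SE of 0.30 and did not pass (adjusted p = 0.77, limma). The tested CASP10 probe set, 210708_x_at, differed by 0.34 ± 0.26 with carboplatin, and both names end in x_at, given to probe sets that may read several transcripts.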

How the results depend on the processing

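The count of 0 members past the limma threshold held in all 8 comparisons under each of the 18 or 19 alternatives run for it. These were 2 other scalings, 2 pseudocounts, 2 filters, no trend, only the groups compared (for differences of 2 groups), the replicate block, brightness and leaving out each array. With no filter all 73 members were tested, and with the 60th percentile 30. The smallest adjusted p of any member was 0.069, for rosiglitazone against control with the deposited scaling. The 40 member results with the smallest p in the main fit, 5 in each comparison, kept their sign in each of 735 values. They were chosen by p from the same arrays, which favours a kept sign. No share was counted for other probe sets, so this says little about how firm they are. Over the same alternatives the count of all probe sets past the threshold ran from 3 to 80 for rosiglitazone against control, 0 to 2 for carboplatin, 5 to 47 for the combination, 4 to 28 for the combination against carboplatin, 0 to 3 against rosiglitazone, 36 to 142 and 1 to 4 for the main effects of rosiglitazone and carboplatin, and 0 to 3 for the interaction. TNFRSF21 kept its rosiglitazone main effect call in 17 of 17 alternatives and TNFRSF1A in 16 of 17. In differences of 2 groups, neither receptor passed with the deposited scaling, with median scaling or without the trend. These differences were rosiglitazone against control, and the combination against control and against carboplatin. With the deposited scaling the all-probe-set median for rosiglitazone against control was 0.22 in place of -0.01, with 81.7% of all probe sets and 19 of 27 members higher. Same-numbered arrays deviated together only between carboplatin and combination (r = 0.25 across probe sets, 0.61 across members) and the other pairs ran from -0.11 to 0.09 across probe sets and from -0.31 to 0.09 across members, so the numbers were not taken to pair the arrays. The replicate block left 0 members called and moved the count for all probe sets from 48 to 43 for rosiglitazone, from 2 to 0 for carboplatin and from 30 to 33 for the combination. With the control numbers crossed, an alternative chosen after seeing the data, the counts were 80, 2 and 47, with 0 members.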
